A study of Mus musculus with 9 samples.

Results

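The 44 collagen genes on the array were examined in cells labelled as dedifferentiated mouse cardiac fibroblasts, in a study of protein-based dedifferentiation. Members were all rows that the platform annotation assigns to 1 symbol of the form Col, number, a, number, with the row of highest mean over the arrays kept for each gene. They make up 44 of 19938 genes tested. The groups were dedifferentiated cardiac fibroblasts, embryonic stem (ES) cells and adult cardiac fibroblasts, with 3 samples each, all labelled C57BL/6. RNA of every sample was hybridised to its own Affymetrix array, 9 in all. Which proteins were used, how long cells were cultured, and whether the samples are separate animals or cultures is not stated in the labels. All p-values thus rest on the spread among these 9 samples, and that spread may be technical. For the fibroblasts the source field mentions ES cells as well, and the sample titles were followed.

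Collagens are the main structural proteins of the extracellular matrix, built from chains that wind around each other in a helix of repeated Gly-X-Y units. Fibrillar collagens form the rope-like fibres of connective tissue, and FACIT collagens sit on the surface of such fibres. Type IV collagen forms the sheet-like network of basement membranes, and other members form beaded filaments, hexagonal lattices or membrane-bound chains. In the heart, fibroblasts are the chief source of fibrillar collagen, whereas basement membrane collagen is also made by early embryonic epithelia.

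All levels below are the deposited log2 expression values, and all differences are in log2 units. Calls required a limma p below 0.05 after Benjamini-Hochberg adjustment over all 19938 genes and a difference of at least 1 log2 unit. The correlation between arrays of a group was 0.993 to 0.995 for dedifferentiated cells, 0.988 to 0.992 for ES cells and 0.991 to 0.994 for fibroblasts, and the array medians ran from 4.65 to 4.86. ES replicate 1 and fibroblast replicate 2 had the narrowest spread of values over all rows, with SDs of 2.30 and 2.32, against 2.36 to 2.39 on the other 7 arrays. Without both of these arrays the counts of collagens called were the same as with them in each of the comparisons. Markers followed the labels. All 7 pluripotency markers examined, such as Pou5f1 and Nanog, were higher in dedifferentiated and in ES cells than in fibroblasts, and all 8 fibroblast markers, such as Dcn and Tcf21, were lower. Sex-linked transcripts separated the fibroblasts from both other groups. Xist, the RNA of the inactive X chromosome, had log2 values of 3.07 to 3.49 in dedifferentiated cells, 2.78 to 3.39 in ES cells and 7.24 to 7.39 in fibroblasts. Eif2s3y, a Y-linked gene, had log2 values of 7.95 to 8.18 in dedifferentiated cells, 7.47 to 7.95 in ES cells and 3.45 to 3.69 in fibroblasts. The dedifferentiated arrays thus carry high Y-linked and low Xist signal, the reverse of the fibroblast arrays they are set against. The labels give neither the sex of the animals nor whether the dedifferentiated cells came from the fibroblast cultures measured. Dedifferentiation and this difference in source cannot be told apart in any comparison with these fibroblasts. The words fell and rose below therefore mean lower and higher than in the group compared, not a change followed in the same cells.

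Collagen genes of every class were lower in the dedifferentiated cells than in the fibroblasts. Of the 44 genes, 16 fell and 1, Col18a1, rose, against 10.1% of all genes called lower and 8.79% called higher. Of the fibrillar genes 6 of 11 fell, of the basement membrane genes 2 of 6, of the FACIT genes 3 of 9 and of the others 5 of 18. The median difference was -2.13 for fibrillar genes, -0.20 for basement membrane genes, -0.10 for FACIT genes and -0.15 for the others, against 0.01 over all genes tested. In ES cells against the same fibroblasts, 16 collagens fell and 1 rose (background 10.4% lower and 8.85% higher), with the same number in each class. Class medians were then -2.09, -0.48, -0.09 and -0.10, against 0.02 over all genes. With no size required, 19 collagens passed the p threshold in dedifferentiated cells (47.4% of all genes did) and 20 in ES cells (49% of all genes). All dedifferentiated arrays lay below all fibroblast arrays for 19 collagens and above them for 2 (25.8% and 28.9% of all genes). All ES arrays lay below the fibroblast arrays for 18 and above them for 3 (24.4% and 27.6% of all genes). The fibroblast arrays are shared by both comparisons, which are therefore not independent of each other. These are bulk samples, so fewer cells of a type and less RNA per cell cannot be told apart.

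**Figure D1:**
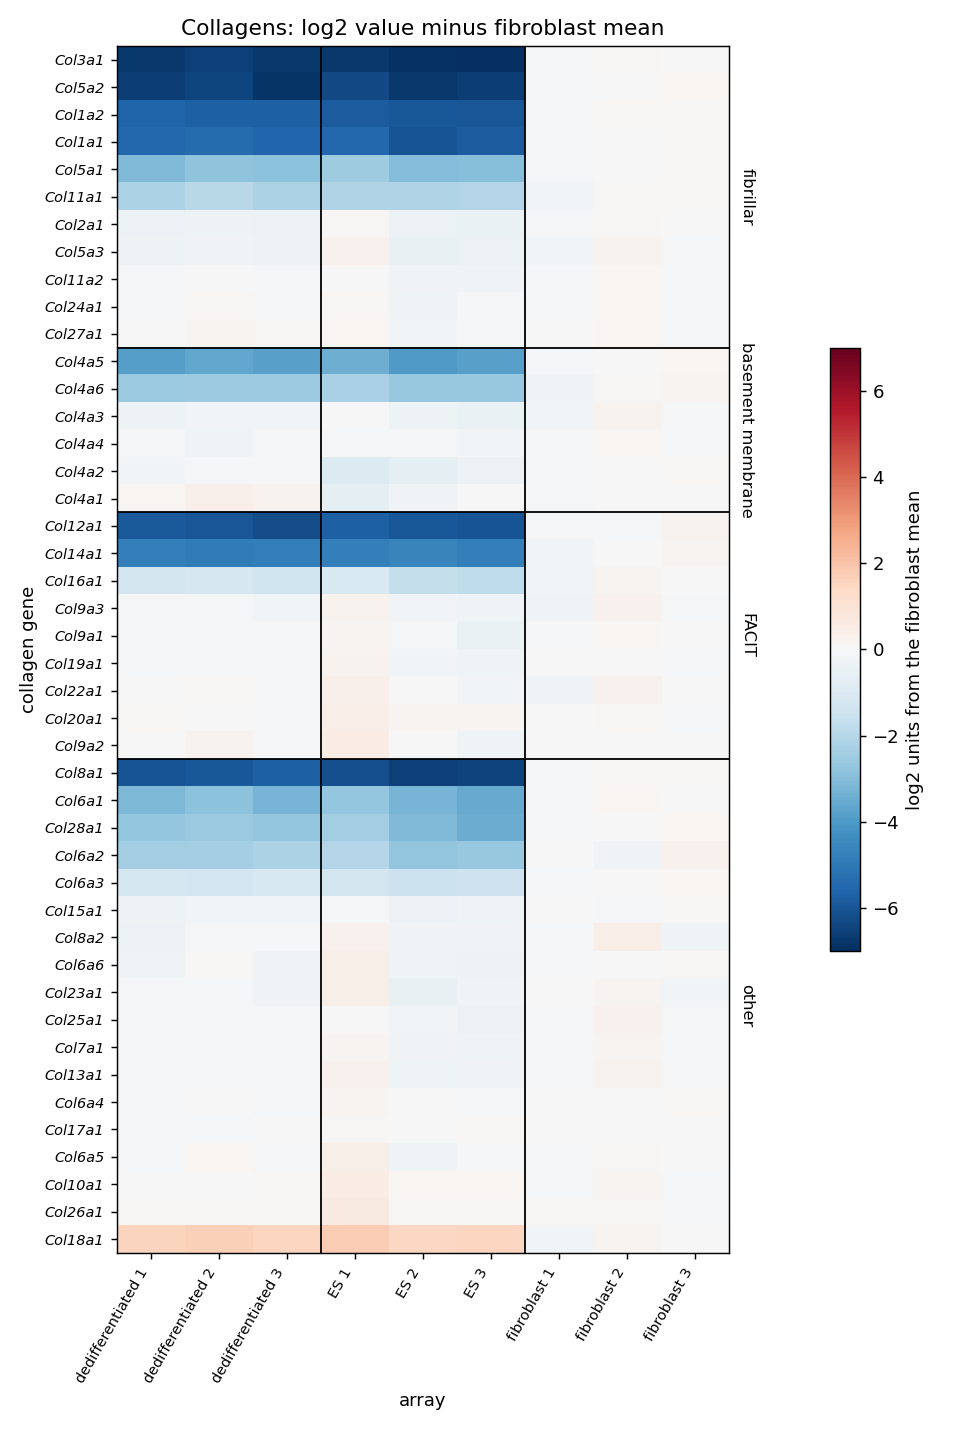
Log2 value of each of the 44 collagen genes (rows, by class) on each array (columns) minus the mean of the fibroblast arrays. Blue rows, such as Col3a1 and Col12a1, lie far below the fibroblast mean on all dedifferentiated and ES arrays, Col18a1 lies above it, and most other rows are near 0.

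Both chains of type I collagen fell. Col1a1 and Col1a2 encode these chains, which form the most abundant protein of connective tissue. Col1a1 had log2 values of 7.12, 7.21 and 7.07 in dedifferentiated cells, 7.14, 6.57 and 6.77 in ES cells, and 12.54, 12.61 and 12.68 in fibroblasts. Col1a2 had log2 values of 6.73, 6.62 and 6.63 in dedifferentiated cells, 6.53, 6.41 and 6.35 in ES cells, and 12.20, 12.45 and 12.43 in fibroblasts. Every dedifferentiated and ES array lay more than 5 log2 units below every fibroblast array for both chains. Col1a1 differed from fibroblasts by -5.47 in dedifferentiated cells (95% interval -5.75 to -5.20) and by -5.79 in ES cells (-6.06 to -5.51), which is 2.25% and 1.81% of the fibroblast level. Its partner Col1a2 was at 1.93% of that level in dedifferentiated cells (1.69 to 2.21) and at 1.64% in ES cells (1.43 to 1.88). The adjusted p from limma lay between 1.13e-12 and 1.89e-11 for these chains.

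Type III collagen, a homotrimer of Col3a1 chains that is typical of compliant tissue, showed the largest difference of the family. Col3a1 had log2 values of 5.43, 5.65 and 5.41 in dedifferentiated cells, 5.40, 5.24 and 4.82 in ES cells, and 12.05, 12.23 and 12.21 in fibroblasts. It differed by -6.67 in dedifferentiated cells (95% interval -6.97 to -6.37, limma adjusted p = 7.94e-12) and by -7.01 in ES cells (-7.31 to -6.71, adjusted p = 5.23e-12). Col5a2, a chain of the type V collagen that seeds type I fibres, had log2 values of 4.40, 4.56 and 4.15 in dedifferentiated cells, 4.70, 4.24 and 4.39 in ES cells, and 10.93, 10.95 and 11.12 in fibroblasts. Its neighbour on mouse chromosome 1 is Col3a1, and it differed by -6.63 (-6.92 to -6.34) in dedifferentiated cells and by -6.56 (-6.84 to -6.27) in ES cells.

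Col5a1 and Col11a1 also fell. Col5a1, the other main chain of type V collagen, had log2 values of 5.79, 6.06 and 6.00 in dedifferentiated cells, 6.41, 5.83 and 5.89 in ES cells, and 8.79, 8.88 and 8.99 in fibroblasts. It differed by -2.93 in dedifferentiated cells and by -2.84 in ES cells. The 95% intervals of that difference were -3.25 to -2.62 and -3.16 to -2.53. Col11a1, a minor fibril chain known from cartilage, differed from fibroblasts by -2.13 in dedifferentiated cells (adjusted p = 1.3e-08) and by -2.09 in ES cells (adjusted p = 1.43e-08). The remaining 5 fibrillar genes were Col2a1, the main cartilage collagen, and Col5a3, Col11a2, Col24a1 and Col27a1. None of these 5 was called by limma, and their differences from fibroblasts ran from -0.39 to 0.08 in dedifferentiated cells. Only Col2a1 among them had an adjusted p under 0.05 (0.0279), with a difference of -0.39, below the size required. In ES cells Col2a1 differed by -0.26 (95% interval -0.55 to 0.02), its ES values overlapping those of fibroblasts.

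The sequence just upstream of Col1a2 and Col3a1 is shown because these genes fell together by large amounts. RefSeq windows of 250 bases before the gene start (GRCm38.p6) were searched on both strands for the CCAAT box (CCAAT), the GC box (GGGCGG) and the TATA box (TATAAA), and matches are in capitals. The Col1a2 window is chr6:4505368-4505617 on the plus strand, and the Col3a1 window is chr1:45311288-45311537 on the plus strand.
Col1a2: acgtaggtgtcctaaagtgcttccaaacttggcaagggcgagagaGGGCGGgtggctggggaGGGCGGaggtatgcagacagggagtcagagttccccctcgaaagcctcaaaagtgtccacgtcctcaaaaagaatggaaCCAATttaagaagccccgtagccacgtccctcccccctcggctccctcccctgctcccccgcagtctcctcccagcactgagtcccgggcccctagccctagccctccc
Col3a1: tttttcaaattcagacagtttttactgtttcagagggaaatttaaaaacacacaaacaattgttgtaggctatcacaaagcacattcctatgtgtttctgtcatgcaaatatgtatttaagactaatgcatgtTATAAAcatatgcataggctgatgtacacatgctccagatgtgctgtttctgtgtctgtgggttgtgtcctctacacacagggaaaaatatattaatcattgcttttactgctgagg
Col1a2 held 1 CCAAT box, starting 109 bases before the start, and 2 GC boxes, and its window was 62.0% G and C. Col3a1 held none of these but 1 TATA box match, starting 117 bases before the start, and its window was 35.2% G and C with 0 CpG dinucleotides, against 11 in Col1a2. The windows of these genes, both of which fell by more than 5 log2 units, thus differ widely in composition. Over all 32851 promoter windows, 33.8% held a CCAAT box, 32.7% a GC box and 12.4% a TATA box match, and the median G and C content was 52.4%. Windows of 35 collagen genes were in the table, 38 in all, of which 13 held a CCAAT box (34.2%), 22 a GC box (57.9%) and 5 a TATA box match (13.2%). A GC box was present in 9 of 13 windows of genes that fell in dedifferentiated cells and in 12 of 23 windows of genes that were not called. A match describes letters in the window and is not evidence of a bound site.

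**Figure D2:**
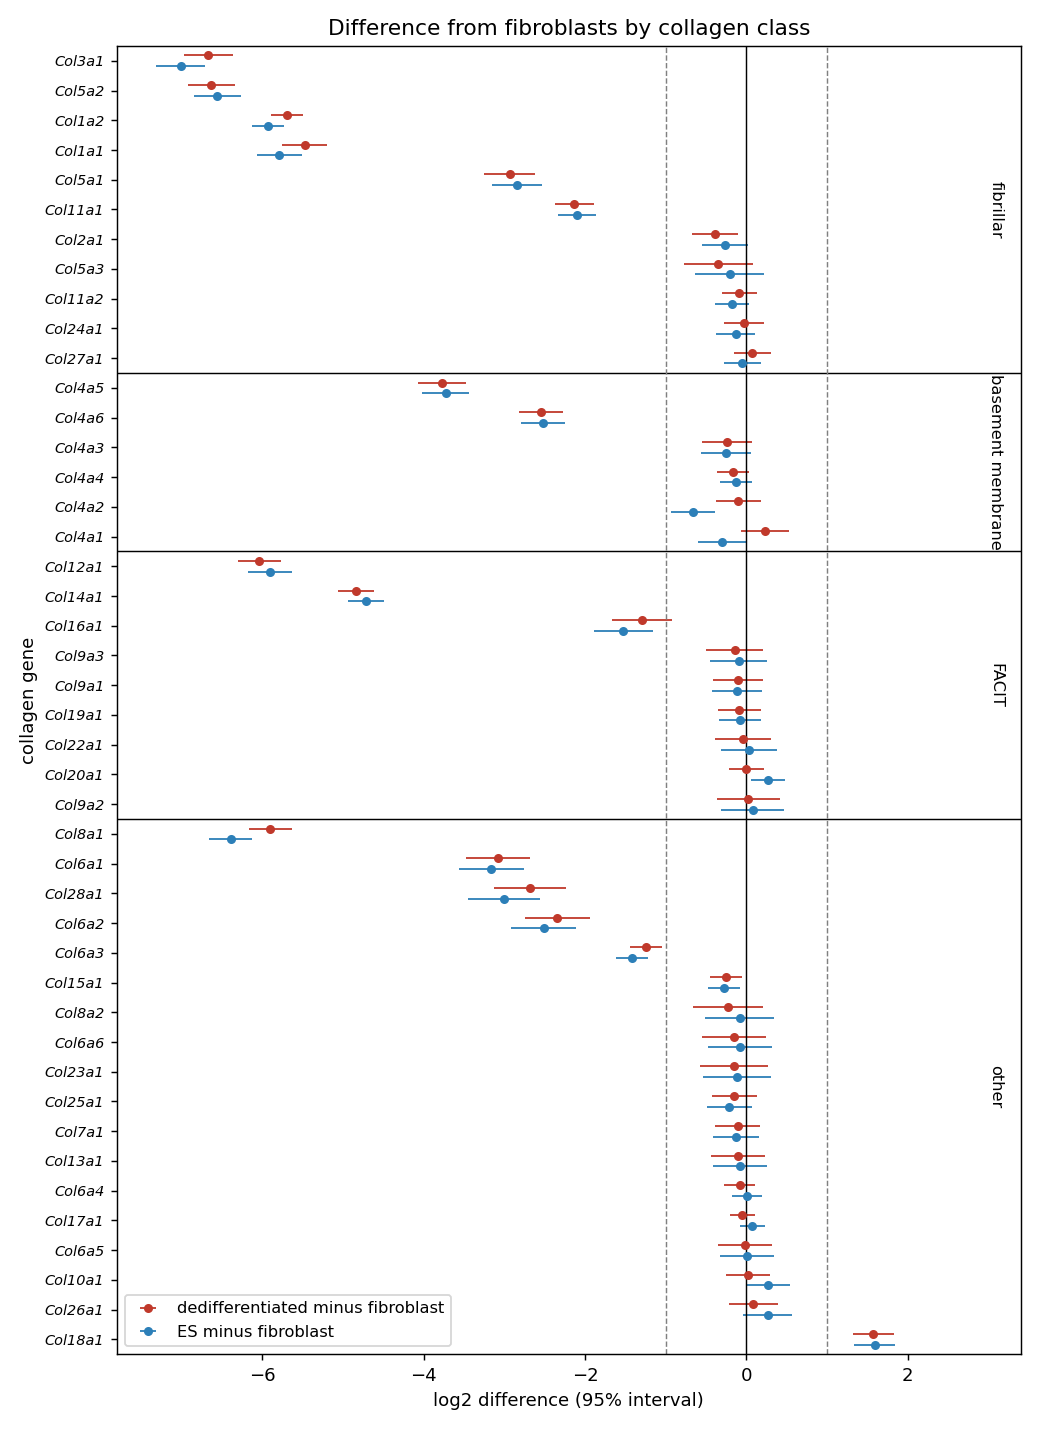
Log2 difference from fibroblasts with its 95% interval (limma) for each collagen, by class, in dedifferentiated cells (red, upper point of each row) and ES cells (blue, lower point). Dashed lines mark 1 log2 unit. Fibrillar, FACIT and other genes reach from about 0 to around -6 or below, whereas Col4a1 and Col4a2 stay within 1 unit and Col18a1 lies above it.

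Basement membrane collagens split by gene pair. Type IV chains are encoded by genes that lie in pairs, head to head, and the pairs behaved differently here. Col4a1 and Col4a2, whose products form the type IV trimer found in nearly all basement membranes, kept high values in all groups. Col4a1 had log2 values of 10.28, 10.50 and 10.40 in dedifferentiated cells, 9.53, 9.91 and 10.14 in ES cells, and 10.08, 10.20 and 10.20 in fibroblasts. Col4a2 had log2 values of 10.29, 10.39 and 10.40 in dedifferentiated cells, 9.50, 9.85 and 10.05 in ES cells, and 10.34, 10.49 and 10.54 in fibroblasts. For Col4a1 the dedifferentiated arrays lay above the fibroblast arrays without overlap, and for Col4a2 those groups overlapped. Neither was called in dedifferentiated cells against fibroblasts: Col4a1 differed by 0.23 (95% interval -0.06 to 0.53, adjusted p = 0.189) and Col4a2 by -0.10 (-0.38 to 0.18, adjusted p = 0.591). These intervals bound any change to between 77.1% and 144% of the fibroblast level. In ES cells the differences were -0.30 for Col4a1 (-0.60 to -0.01, adjusted p = 0.0871) and -0.66 for Col4a2 (-0.94 to -0.38, adjusted p = 0.000823), the second passing the p threshold but not the size required.

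The X-linked pair Col4a5 and Col4a6, whose chains occur in basement membranes of kidney and smooth muscle among other tissues, fell. Col4a5 had log2 values of 4.66, 4.89 and 4.72 in dedifferentiated cells, 5.11, 4.58 and 4.70 in ES cells, and 8.39, 8.51 and 8.68 in fibroblasts. Col4a6 had log2 values of 4.15, 4.20 and 4.18 in dedifferentiated cells, 4.44, 4.09 and 4.08 in ES cells, and 6.47, 6.81 and 6.90 in fibroblasts. No array of the other groups reached the lowest fibroblast array for either gene. Col4a5 was lower by a log2 difference of -3.77 in dedifferentiated cells and of -3.73 in ES cells, at 7.33% (95% interval 5.97 to 8.99) and 7.55% (6.15 to 9.26) of the fibroblast level. Col4a6 differed by -2.55 in dedifferentiated cells and by -2.52 in ES cells (adjusted p = 1.02e-08 and 1.05e-08). Both are on the X chromosome, and the part of the opposite Xist and Eif2s3y levels in their values was not tested. Col4a3 and Col4a4, the pair known from the kidney filter, lay between 4.66 and 5.35 on all 9 arrays, with differences from fibroblasts of -0.25 to -0.12.

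The windows on either side of the shared start of Col4a1 and Col4a2 are shown because this pair, unlike the fibre collagens above, was not called in any comparison. Their RefSeq starts lie 21 bases apart on opposite strands of chromosome 8 (GRCm38.p6), whereas those of Col4a6 and Col4a5 are 1343 bases apart. By these starts the transcribed ends of Col4a1 and Col4a2 overlap. Each window thus lies in sequence transcribed from the other gene, and the bases between the starts are in neither window. The Col4a1 window is chr8:11312827-11313076 on the minus strand and the Col4a2 window chr8:11312555-11312804 on the plus strand, with capitals marking the same motifs on either strand.
Col4a1: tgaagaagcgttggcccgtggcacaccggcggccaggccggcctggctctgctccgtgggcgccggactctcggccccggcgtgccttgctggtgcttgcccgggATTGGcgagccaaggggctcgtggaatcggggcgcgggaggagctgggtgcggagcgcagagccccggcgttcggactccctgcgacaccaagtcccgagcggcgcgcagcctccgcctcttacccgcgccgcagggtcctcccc
Col4a2: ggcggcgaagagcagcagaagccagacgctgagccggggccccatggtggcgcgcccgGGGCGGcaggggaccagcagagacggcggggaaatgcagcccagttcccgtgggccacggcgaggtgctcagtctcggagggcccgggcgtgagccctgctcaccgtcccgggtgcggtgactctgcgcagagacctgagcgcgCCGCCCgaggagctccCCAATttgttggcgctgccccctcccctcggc
Each window held 1 CCAAT box, read on the opposite strand in Col4a1, and Col4a2 also held 2 GC boxes. Their G and C content was 74.4% and 73.6%, with 31 and 26 CpG dinucleotides, against a median of 6 CpG over all promoter windows.

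**Figure D3:**
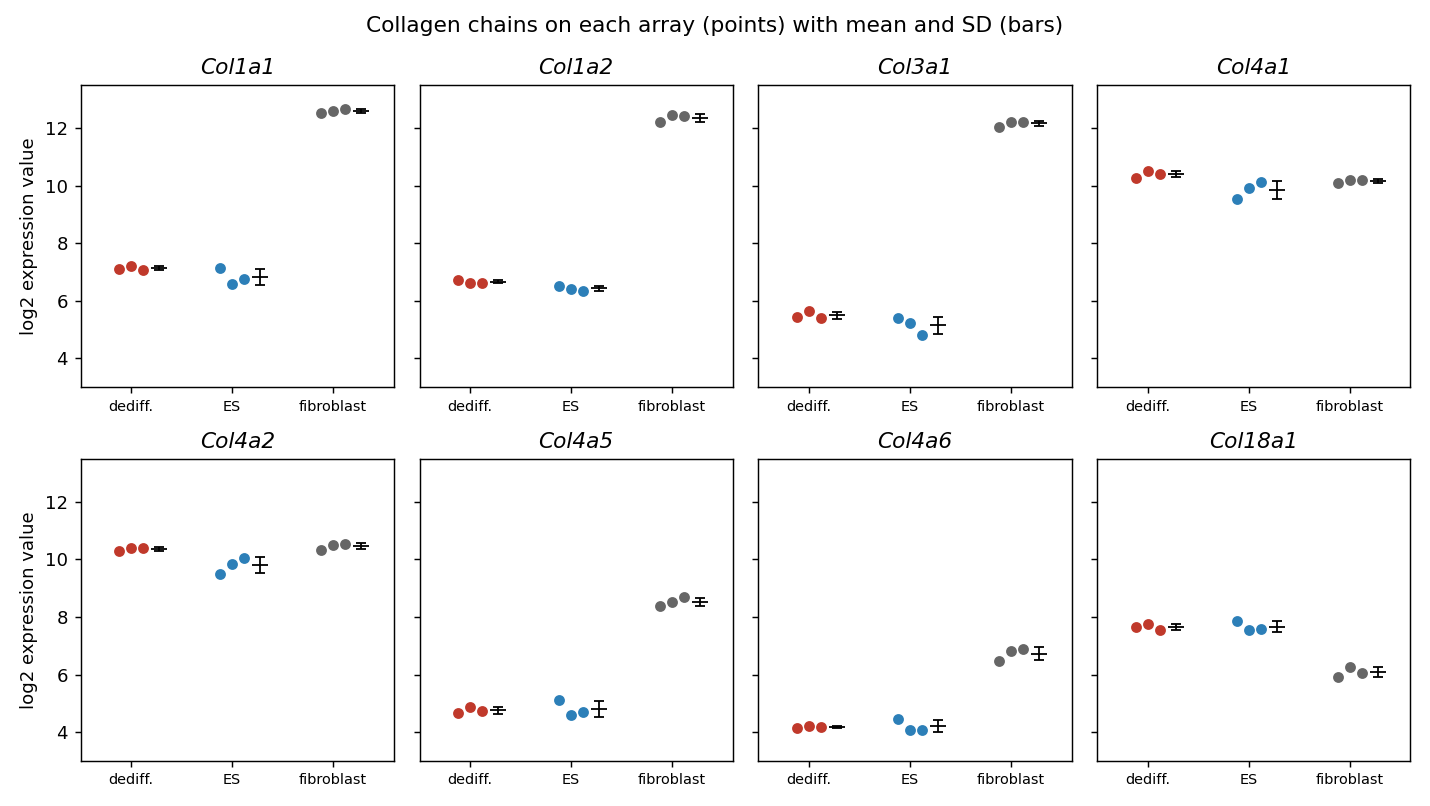
Log2 expression values of 8 collagen chains on each array (points) in dedifferentiated cells, ES cells and fibroblasts, with the mean and SD of each group (black, n = 3). Col1a1, Col1a2 and Col3a1 separate fibroblasts from the other groups by more than 5 units, Col4a1 and Col4a2 stay between 9.50 and 10.54, Col4a5 and Col4a6 are lower and Col18a1 higher in dedifferentiated and ES cells than in fibroblasts.

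FACIT collagens bind to the surface of fibres and tune their spacing, and Col12a1, Col14a1 and Col16a1 fell, 3 of 9. Col12a1, a FACIT of dense connective tissue, had log2 values of 4.55, 4.46 and 4.26 in dedifferentiated cells, 4.74, 4.53 and 4.40 in ES cells, and 10.34, 10.35 and 10.68 in fibroblasts. Col14a1, which regulates fibril growth, had log2 values of 4.61, 4.52 and 4.60 in dedifferentiated cells, 4.64, 4.81 and 4.66 in ES cells, and 9.26, 9.37 and 9.64 in fibroblasts. For both genes the fibroblast arrays stood clear of all 6 others. Col12a1 fell to 1.52% of the fibroblast level in dedifferentiated cells (95% interval 1.26 to 1.84) and to 1.67% in ES cells (1.39 to 2.02), and Col14a1 to 3.49% (2.99 to 4.07) and 3.80% (3.25 to 4.43). Col16a1 changed less, with log2 values of 6.00, 6.07 and 5.86 in dedifferentiated cells, 6.18, 5.57 and 5.48 in ES cells, and 7.09, 7.47 and 7.23 in fibroblasts. It differed by -1.29 in dedifferentiated cells (adjusted p = 3.96e-05) and by -1.52 in ES cells (adjusted p = 9.73e-06). The cartilage FACIT genes Col9a1, Col9a2 and Col9a3, together with Col19a1, Col20a1 and Col22a1, were not called in either comparison. Their differences from fibroblasts ran from -0.14 to 0.03 in dedifferentiated cells, and Col20a1 in ES cells had the largest at 0.27 (adjusted p = 0.0388).

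Among the remaining collagens, Col8a1 fell most. Col8a1 encodes a chain of the short-chain type VIII collagen of vessel walls and the subendothelium, and it had log2 values of 4.60, 4.70 and 4.91 in dedifferentiated cells, 4.50, 4.09 and 4.15 in ES cells, and 10.51, 10.70 and 10.71 in fibroblasts. It fell to 1.67% of the fibroblast level in dedifferentiated cells (95% interval 1.39 to 2.01) and to 1.19% in ES cells (0.989 to 1.43). Its partner Col8a2 differed from fibroblasts by -0.23 in dedifferentiated cells (adjusted p = 0.41) and by -0.08 in ES cells (adjusted p = 0.784), and it was not called. Col28a1, a chain related to type VI collagen and known from peripheral nerve, had log2 values of 4.94, 5.01 and 4.88 in dedifferentiated cells, 5.20, 4.51 and 4.15 in ES cells, and 7.51, 7.62 and 7.74 in fibroblasts. It differed by -2.69 in dedifferentiated cells (adjusted p = 4.04e-07) and by -3.00 in ES cells (adjusted p = 1.49e-07). Sox10, the measured Schwann cell marker, was not called in either comparison. Its group means were 4.60 to 4.81, a range where detection is not known, so it cannot show whether Schwann cells were present.

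Type VI collagen forms beaded filaments around cells from a trimer of Col6a1, Col6a2 and Col6a3 chains, and all of these chains fell. Col6a1 had log2 values of 6.03, 6.32 and 5.96 in dedifferentiated cells, 6.49, 5.90 and 5.68 in ES cells, and 9.04, 9.33 and 9.18 in fibroblasts. Col6a2 had log2 values of 5.55, 5.59 and 5.78 in dedifferentiated cells, 5.92, 5.20 and 5.31 in ES cells, and 7.97, 7.72 and 8.26 in fibroblasts. Col6a3 had log2 values of 5.17, 5.04 and 5.25 in dedifferentiated cells, 5.09, 4.89 and 4.94 in ES cells, and 6.30, 6.37 and 6.50 in fibroblasts. All fibroblast arrays lay above all other arrays for each chain. In dedifferentiated cells Col6a1 differed by -3.08 (95% interval -3.48 to -2.68), Col6a2 by -2.34 (-2.75 to -1.94) and Col6a3 by -1.24 (-1.44 to -1.04). In ES cells the differences were -3.16, -2.51 and -1.42 in the same order of chains. The later-described chains Col6a4, Col6a5 and Col6a6 lay between 4.86 and 6.83 on all arrays and were not called.

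Col18a1 was the collagen called higher than in fibroblasts. It encodes a multiplexin, a heparan sulfate-bearing collagen of basement membranes whose C-terminal fragment is endostatin. Col18a1 had log2 values of 7.64, 7.75 and 7.56 in dedifferentiated cells, 7.87, 7.54 and 7.59 in ES cells, and 5.91, 6.25 and 6.06 in fibroblasts. The lowest of the dedifferentiated and ES arrays stood more than 1 log2 unit above the highest fibroblast array. It rose 2.98-fold in dedifferentiated cells (log2 difference 1.58, 95% interval 1.33 to 1.83, adjusted p = 2.58e-07) and 3.01-fold in ES cells (1.59, 1.34 to 1.84, adjusted p = 2.33e-07). Its relative Col15a1, the other multiplexin, differed by -0.25 in dedifferentiated cells (adjusted p = 0.0345) and by -0.28 in ES cells (adjusted p = 0.0218), below the size required. Col18a1 lies on chromosome 10, as do Col6a1 and Col6a2, which fell.

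RefSeq gives Col18a1 a pair of starts, and both upstream windows are shown because the array value does not say which of them is used. They are chr10:77166531-77166780 and chr10:77113706-77113955, both on the minus strand (GRCm38.p6), with the same motifs in capitals.
Col18a1 upstream start: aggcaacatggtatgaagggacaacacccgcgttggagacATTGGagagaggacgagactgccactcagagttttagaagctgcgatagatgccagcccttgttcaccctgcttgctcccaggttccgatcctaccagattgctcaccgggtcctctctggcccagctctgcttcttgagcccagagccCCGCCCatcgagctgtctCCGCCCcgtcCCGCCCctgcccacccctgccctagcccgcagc
Col18a1 downstream start: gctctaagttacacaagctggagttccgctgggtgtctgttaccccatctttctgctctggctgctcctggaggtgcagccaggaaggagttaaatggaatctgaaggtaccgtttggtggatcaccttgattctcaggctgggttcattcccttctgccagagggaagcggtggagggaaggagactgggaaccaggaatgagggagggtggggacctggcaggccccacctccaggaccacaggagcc
The window of the upstream start held 3 GC boxes, beginning 61, 43 and 33 bases before the start, and 1 CCAAT box on the opposite strand. That of the downstream start held none of the motifs and had 3 CpG dinucleotides, against 12.

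The remaining 25 collagens, all except Col4a1 and Col4a2 among the 27 not called against fibroblasts, lay between 3.71 and 6.83 on all 9 arrays. Their largest absolute difference was 0.39 between dedifferentiated cells and fibroblasts and 0.28 between ES cells and fibroblasts. In ES replicate 1 the value was the highest of the ES arrays for 24 of these 25, and in fibroblast replicate 2 the highest of the fibroblast arrays for 20. Exactly equal values on 2 or more arrays of a group occurred in 13 of them, so a small SD is no measure of precision there. The deposited values carry no detection call, and whether these genes, or the low values of genes that fell, lie above background is not known. Folds of genes that fell to such levels may be understated. Col6a5 and Col6a6 had a second row each, and those rows lay below 4.4 on all arrays. The rows used were higher, at 4.88 to 5.59 for Col6a5 and 6.09 to 6.83 for Col6a6. Over the 44 collagens, a moderated F test across the 3 groups passed in 20 (45.5%), against 52.8% of all genes.

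The direct comparison asked whether dedifferentiated cells and ES cells differ in collagens. Of the 44 genes, 0 were called by limma, against 1.01% of all genes called higher and 0.547% called lower. Shares this small give few calls in most sets of 44 genes, so this count does not set collagens apart. At an unadjusted p under 0.05, 7 collagens passed without a size, against 30.5% of all genes, and 0 with a difference of at least 1 log2 unit, against 1.55% of all genes. For all 44 the 95% interval of the difference lay within 1 log2 unit of 0, against 96.2% of all genes. Most collagens had low values in both groups, such as Col5a2 with means of 4.37 and 4.44 and Col12a1 with 4.42 and 4.56. Whether such values lie above background is not known, so narrow intervals there do not show equal expression. Of the 17 collagens called against fibroblasts, the interval held 0 for 13, and the largest absolute difference among them was 0.49.

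Dedifferentiated arrays all lay below all ES arrays for 4 collagens and above them for 5 (15.6% and 16.9% of all genes). Small differences passed the p threshold alone for 3 collagens, all higher in dedifferentiated cells, against 21.3% of all genes in either direction and 11.2% in that direction. These were Col4a2, Col4a1 and Col8a1, whose dedifferentiated arrays all lay above the ES arrays. Col4a2 differed by 0.56 (95% interval 0.28 to 0.84, adjusted p = 0.00816), and Col4a1 by 0.54 (0.24 to 0.83, adjusted p = 0.0143). ES replicate 1 had the lowest Col4a1 and Col4a2 values of all arrays, and without it the differences were 0.37 (adjusted p = 0.0215) for Col4a1 and 0.41 (adjusted p = 0.011) for Col4a2. The adjusted p of Col4a1 was above 0.05 without dedifferentiated replicate 2 (adjusted p = 0.0605) or 3 (0.0509). Col8a1 differed by 0.49 (0.22 to 0.76, adjusted p = 0.0141), and its adjusted p was 0.0695 without dedifferentiated replicate 3, 0.0631 without ES replicate 2 and 0.0529 without ES replicate 3. For type I and III collagen the differences were 0.31 for Col1a1 (0.04 to 0.59, adjusted p = 0.111), 0.23 for Col1a2 (0.04 to 0.43, adjusted p = 0.0934) and 0.34 for Col3a1 (0.04 to 0.64, adjusted p = 0.107), none passing.

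Markers of primitive and parietal endoderm, embryonic cells that lay down a basement membrane rich in type IV collagen, are given beside Col4a1 and Col4a2. Of 9 measured, 4 rose in dedifferentiated cells against ES cells, where 1.01% of all genes did. These were Gata4 by 1.63, Gata6 by 1.36, Sox17 by 1.79 and Sox7 by 1.40. The other 5 were not called, with differences of 0.51 for Foxa2, 0.77 for Dab2, 0.14 for Hnf4a, -0.09 for Afp and 0.34 for Ttr. Gata4, Gata6 and Dab2 were also high in fibroblasts, at mean log2 values of 9.16, 8.83 and 8.85. Between dedifferentiated cells and fibroblasts they were not called, with differences of 0.45, 0.57 and 0.49. Sox17, Sox7 and Foxa2 were called higher than in fibroblasts, and Hnf4a, Afp and Ttr were not called. Group means were 4.66 to 4.87 for Hnf4a, 3.59 to 3.68 for Afp and 3.32 to 3.68 for Ttr. Detection is not known at such values, so the absence of a call for these genes says little. The summed linear level of the 9 ranged from 2352 to 3007 in dedifferentiated cells, 948 to 1300 in ES cells and 1609 to 1717 in fibroblasts. Of 8 fibroblast markers, Pdgfra and Dcn were called higher in dedifferentiated cells against ES cells (1.01% of all genes were), Pdgfra by 1.37. The other 6 were not called, with differences of 0.90 for Ddr2, 0.85 for Thy1, 0.02 for Tcf21, -0.10 for Lum, -0.12 for Postn and -0.23 for Pdgfrb. The summed linear level of the 8 was 717 to 796 in dedifferentiated cells and 329 to 416 in ES cells. It was 11747 to 12673 in fibroblasts. Pdgfra contributed most to it in dedifferentiated cells, with a mean log2 value of 8.96, and had 7.59 in ES cells as well. A higher sum is thus not a measure of fibroblast content in these groups. Endothelial cells also make type IV collagen. The sum of 6 endothelial markers was 441 to 460 in dedifferentiated cells, 301 to 344 in ES cells and 195 to 225 in fibroblasts. Pecam1, with mean log2 values of 7.04 in ES cells and 4.55 in fibroblasts, was the only marker called between those groups. The higher sum in ES cells thus does not show that endothelial cells were present. Between dedifferentiated and ES cells only Cdh5 of the 6 markers was called, with a difference of 1.38. The differences were 0.94 for Tek, 0.71 for Kdr, -0.05 for Pecam1, -0.04 for Tie1 and -0.04 for Vwf. The part of these marker groups in the collagen values was not tested.

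**Figure D4:**
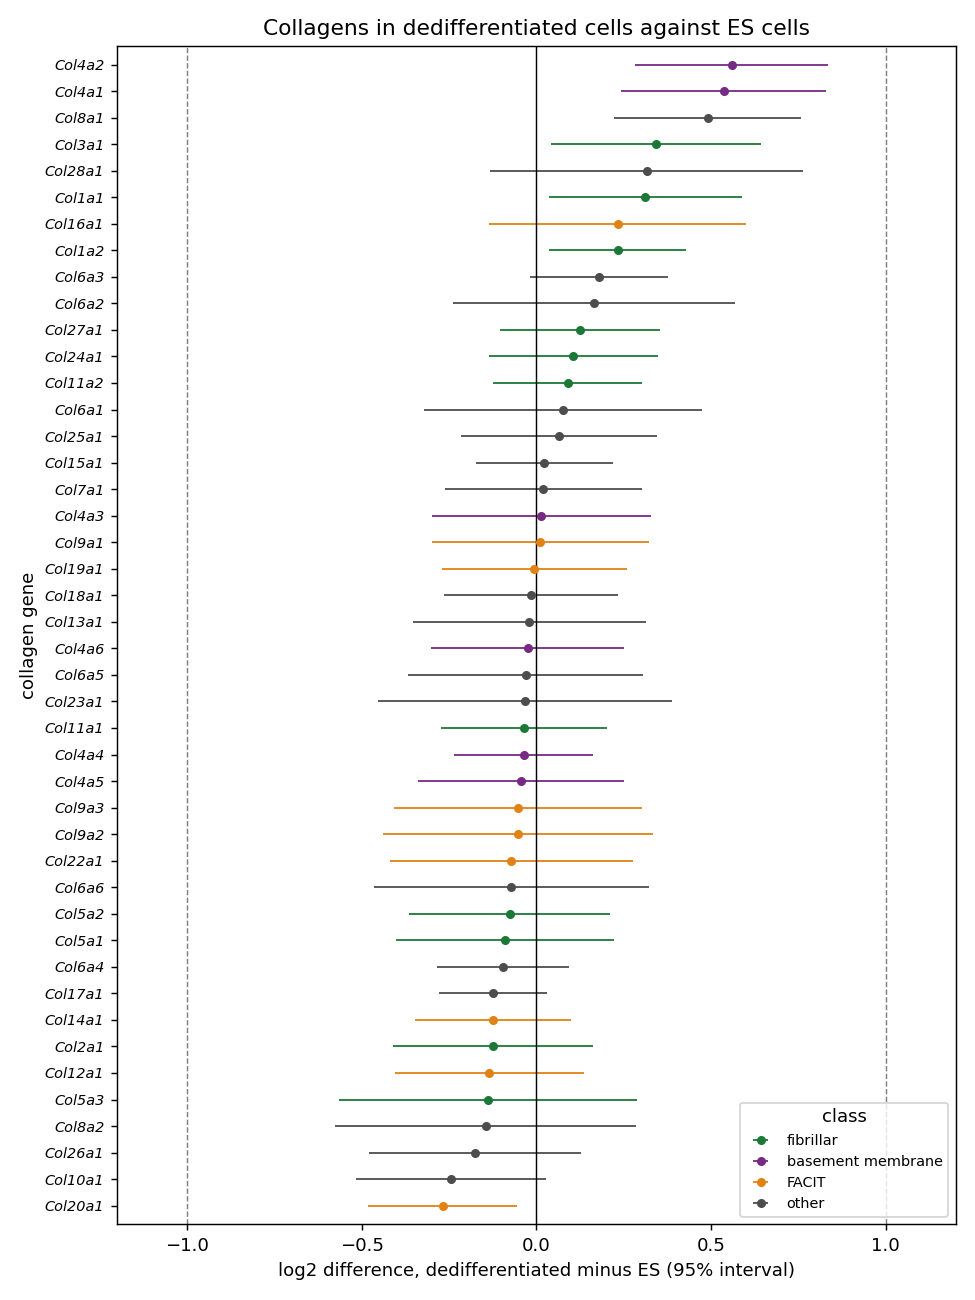
Log2 difference between dedifferentiated cells and ES cells with its 95% interval (limma) for the 44 collagens, ordered by size and coloured by class. All intervals lie within 1 log2 unit (dashed lines) of 0, and Col4a2, Col4a1 and Col8a1 are at the upper end with 0.56, 0.54 and 0.49.

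Genes that make, process, bind or degrade collagen were examined beside the chains. Enzymes and chaperones of chain folding act in the endoplasmic reticulum, and 8 of 17 measured fell in dedifferentiated cells and 10 of 17 in ES cells (background 10.1% and 10.4%). The prolyl hydroxylase subunit P4ha3 differed by -2.73 in dedifferentiated cells and by -2.99 in ES cells, and the prolyl 3-hydroxylase P3h3 by -2.73 and -2.80. The list's median was -0.78 in dedifferentiated cells and -1.10 in ES cells. Propeptide processing and cross-linking genes, which act outside the cell, fell in 8 of 11 cases in each comparison, with medians of -2.59 and -2.45. Lox, the lysyl oxidase that starts cross-linking, differed by -6.81 in dedifferentiated cells and by -8.10 in ES cells, and Loxl1 by -5.15 and -5.23.

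Receptors and degrading enzymes were lower too. Of 9 measured collagen receptors, 7 fell in each comparison (background 10.1% and 10.4%), with medians of -1.74 and -2.06. The collagen-binding kinase Ddr2 differed by -4.44 in dedifferentiated cells and by -5.34 in ES cells, and Mrc2, an uptake receptor for collagen fragments, by -4.22 and -4.43. Of 6 collagen-degrading enzymes, 5 fell in each comparison, with medians of -3.13 and -3.41, among them the cysteine protease Ctsk at -4.56 and -4.47 and the collagenase Mmp13 at -4.15 and -4.24. Between dedifferentiated and ES cells, the genes called in these lists were P3h2 and Lox, both higher in dedifferentiated cells, Lox by 1.29. Medians over all genes tested were 0.01 in dedifferentiated cells and 0.02 in ES cells against fibroblasts.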

How the data were processed

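Per the submitters' processing notes, the authors' deposited log2 values come from Affymetrix Expression Console 1.1 and RMA, a procedure of background correction, quantile normalization and probe set summary. The genome build is not given in the sources used here. The table holds 35557 rows on 9 arrays, no 2 of them identical. The number of arrays limits the precision.

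Rows were named from the platform annotation, 21789 with 1 symbol, 1621 with several and 12147 not listed, and the row of highest mean was kept for each of 19938 genes. All 44 collagens matched the NCBI gene table of GRCm38.p6 by gene ID. One limma fit (limma 3.58.1, R 4.3.3) held all 9 arrays. It was tested on simulated data with known changes. Collagens were classed as fibrillar, basement membrane, FACIT or other from textbook knowledge. Per-array values are given for the 3 called members of each class with the largest rise and fall in each comparison with fibroblasts, members called between dedifferentiated and ES cells, and partner chains. Pathway and marker lists are described by counts and medians, without a set test. Members, lists and tests were chosen with earlier results of these data known. Promoter sequences are from RefSeq. Alternatives were other normalizations, filters, row choices, variance models, array weights, thresholds, 2-group fits, the replicate number as a block and leaving out arrays.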

Additional observations from a re-analysis of the deposited data

How the results depend on the processing

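With each array left out in turn, 16 collagens were called lower and 1 higher in each comparison with fibroblasts, and 0 in either direction between dedifferentiated and ES cells. Among all 24 alternatives run per comparison, the number called lower against fibroblasts ranged from 14 (change of at least 2 log2 units) to 18 (no size required). With at least 2 log2 units, 0 collagens were higher in either comparison with fibroblasts, since Col18a1 rose by less. With no size required, the count of collagens higher was 2 in ES cells against fibroblasts and 3 in dedifferentiated against ES cells. If Col7a1, Col15a1 and Col18a1 are counted with the basement membrane class, that class has 1 gene higher and the others have 0, in each comparison with fibroblasts. Over all genes, the calls were 9445, 9773 and 4239 with no size required and 1249, 1313 and 18 with at least 2 log2 units, against 3765, 3837 and 310, for dedifferentiated cells against fibroblasts, ES cells against fibroblasts and dedifferentiated against ES cells. Centring arrays on their medians moved the median difference of all genes from 0.01 to -0.11 in dedifferentiated cells against fibroblasts and from 0.02 to -0.10 in ES cells, and the collagen counts did not move. The replicate number as a block left the counts at 16 lower and 1 higher against fibroblasts and at 0 between dedifferentiated and ES cells. Deviations of same-numbered arrays correlated at 0.04 to 0.15 between dedifferentiated cells and fibroblasts, -0.20 to 0.25 between ES cells and fibroblasts and -0.17 to 0.06 between dedifferentiated and ES cells, so the numbers were not taken as pairs. Each dedifferentiated array correlated best with the fibroblast array of its own number, which holds for 1 of 3 arrays in each of the other comparisons. The absence of detection calls limits what can be said of the low values.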

Other observations

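Markers of other cell types gave mixed values, and whether such cells were present was not tested. Against fibroblasts, 10.1% of all genes were called lower and 8.79% higher in dedifferentiated cells, and 10.4% and 8.85% in ES cells. Smooth muscle and pericyte genes had 2 of 5 lower than in fibroblasts in each comparison, Acta2 with differences of -3.72 in dedifferentiated cells and -4.53 in ES cells. Endothelial genes had 3 of 6 higher in dedifferentiated cells and 1 of 6 in ES cells, with Pecam1 rising by 2.44 and 2.48. Pecam1 was the only endothelial gene called in ES cells. Its mean log2 value was 6.99 in dedifferentiated cells and 7.04 in ES cells. Macrophage genes had 2 of 5 lower and 1 higher in each comparison. Lyz2 differed by -5.65 in dedifferentiated cells and -5.52 in ES cells, and C1qa by -1.93 and -1.74. Cd68 was higher, by 1.05 and 1.75, and Csf1r and Adgre1 were not called. Chondrocyte genes had 1 of 4 lower in each, Sox9, at -2.98 and -3.08. Sox9 activates Col2a1 in cartilage, and Col2a1 was not called in either comparison. Of 5 cardiomyocyte genes 0 were called by limma against fibroblasts, with 2 in dedifferentiated cells and 2 in ES cells at an unadjusted p under 0.05, a rule that 50.9% and 52.4% of all genes met. Between dedifferentiated and ES cells, Cnn1 of the smooth muscle list was higher by 1.53 and Cdh5 of the endothelial list by 1.38. In that comparison 1.01% of all genes were called higher. Sox10 was the 1 Schwann cell marker measured.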
